A study of Homo sapiens with 3 samples.

Results

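The 33 human Mediator genes were chosen by name, as the subunits of the Mediator complex, and all 33 were found among the 19974 protein-coding genes of chromosomes 1 to 22 and X. They were grouped by the part of the complex that their products build. The head holds 7 genes, the middle 10 including the backbone subunit MED14, the tail 9, and the kinase module 7. The rule that names them uses no measured value, although members and modules were chosen with earlier results of these data known.

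Mediator links transcription factors bound at enhancers to RNA polymerase II and the general factors at promoters. The head and middle modules contact the polymerase, the tail holds most of the surfaces that activators bind, and the kinase module docks reversibly onto the middle through MED13. H3K27ac, an acetylation of histone H3, marks active promoters and enhancers, and H3K4me3, a trimethylation, marks mainly promoters.

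The cells were untreated wild-type KBM7, a near-haploid line established from human chronic myeloid leukaemia. Chromatin immunoprecipitation with sequencing gave 1 library for H3K27ac (an Abcam antibody) and 1 for H3K4me3 (a Millipore antibody), beside 1 input library, so there was no treated group and no replicate. The authors deposited 1 list of enriched intervals (peaks) per mark and 1 table of super-enhancers, long regions dense in H3K27ac. Every value below is therefore a single measurement, intervals cover counting error only, and no difference between genes could be set against a replicate spread.

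On chromosomes 1 to 22 and X the H3K27ac list held 96659 of its 96697 peaks (summit median 21 fragments) and the H3K4me3 list 36951 of 36996 (summit median 39 fragments). Enrichment is given as the authors' fold, the summit against an expected background, and folds of the 2 marks are on separate scales. As a check of the line, both marks lay at an end of 10 of 10 myeloid and progenitor marker genes, 0 of 4 erythroid, 3 of 4 B cell, 3 of 4 T cell and 0 of 3 hepatocyte marker genes.

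All 33 Mediator genes carried both marks within 1 kb of the gene record, where 67.3% of all protein-coding genes did. Taken by itself, H3K27ac was there in 70% of all genes and H3K4me3 in 73.6%. All 33 also had both marks at an end of the record, against 60.4% of all genes. For 25 members a transcription start is listed in the RefSeq promoter table, and all 25 had both marks within 1 kb of it, against 63.3% of the 15812 genes with a listed start. For the other 8 members (MED6, MED8, MED13, MED14, MED21, MED22, MED28 and MED30) the end of the record inside an H3K4me3 interval was taken as the start, so a mark at the start of these genes is given by that rule. At every one of the 33 starts an H3K27ac interval overlapped H3K4me3. The strongest interval of H3K27ac overlapped the strongest of H3K4me3 in 32 of 33 members, all but MED26, against 96.2% of the genes with both marks at a listed start.

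In level the Mediator starts lay close to those of other marked genes. The median H3K27ac fold at the start was 23.7 over Mediator genes (5.60 to 38.3), against 23.3 over the 10295 genes with that mark at a listed start. For H3K4me3 the medians were 67.5 (43.0 to 102) over Mediator genes and 64.4 over 11015 genes. The summit held a median of 130 H3K27ac fragments at Mediator starts and 123 at all marked starts, and 278 and 257 H3K4me3 fragments. Of the 33 members, 18 lay above the all-gene median in H3K27ac fold and 19 in H3K4me3 fold. Interval widths were similar too, with medians of 1649 bp in Mediator genes and 1816 bp in all marked genes for H3K27ac, and 2560 and 2580 bp for H3K4me3. Both marks were thus present at all 25 listed Mediator starts. At the other 8 starts H3K27ac was present too, while H3K4me3 was there by the start rule. Levels were spread across much of the range of other genes. The values over 33 members include the 8 starts set by that rule, whereas the all-gene values rest on listed starts alone.

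**Figure D1:**
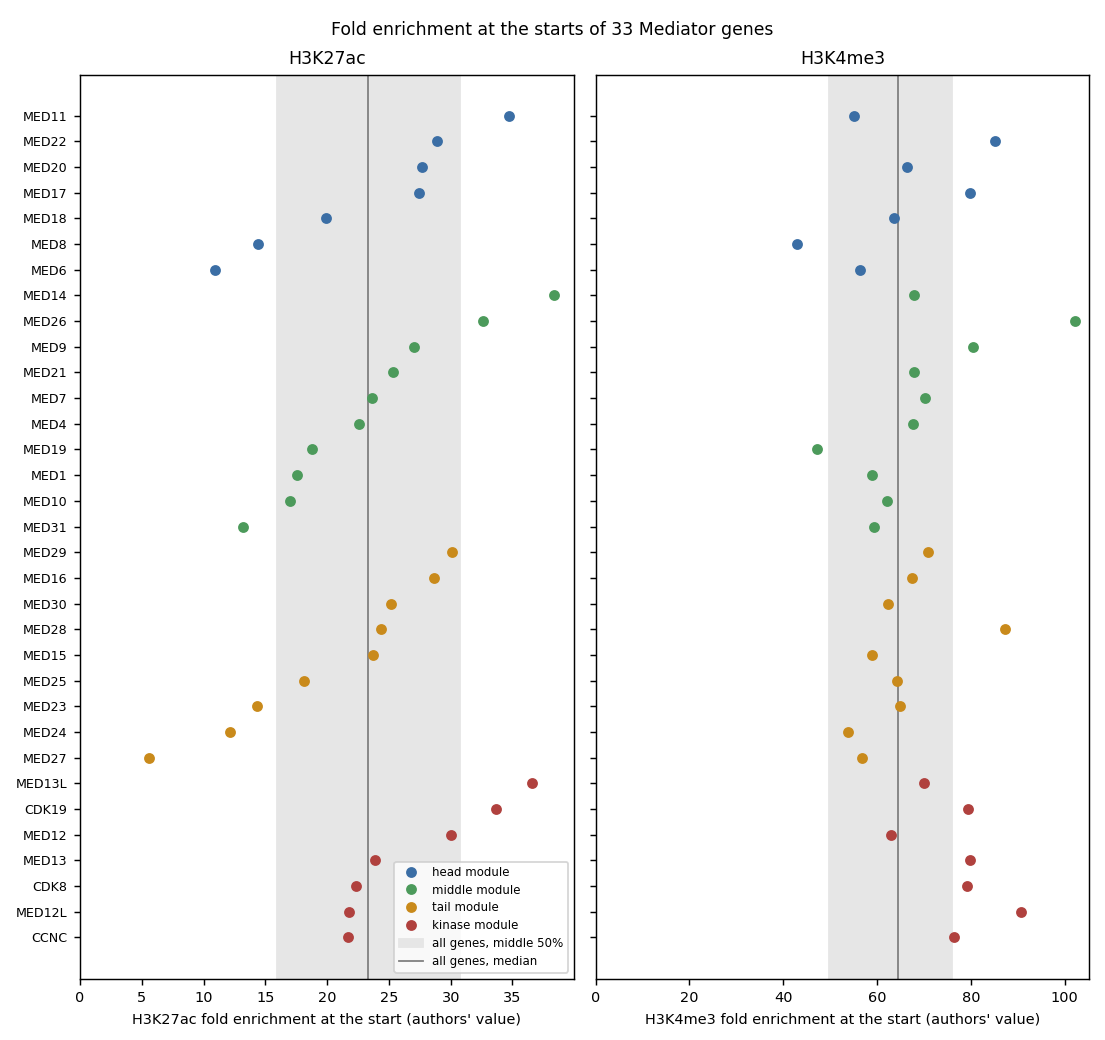
Fold enrichment of H3K27ac (left) and H3K4me3 (right) at the start of each Mediator gene, 1 point per gene and 1 library per mark, coloured by module; the grey band and line give the middle 50% and the median of all genes with the mark at a listed start. The members scatter on both sides of the all-gene medians of 23.3 and 64.4, with MED27 lowest for H3K27ac (5.60) and MED26 highest for H3K4me3 (102).

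The head module, which binds the polymerase and steadies the preinitiation complex, ranged widely in H3K27ac. MED11 had the highest fold (34.7, 131 fragments), followed by MED22 (28.9), MED20 (27.6) and MED17 (27.5), the scaffold of the head. In fragments, MED20 (177) and MED22 (159) stood above MED11. MED18, which pairs with MED20 in the jaw of the head, had a fold of 19.9. MED8 had 14.4 and MED6 11.0, at 92 and 48 fragments. The order was different for the H3K4me3 fold, where MED22 (85.1) and MED17 (79.9) led. MED20 had 66.5, MED18 63.6, MED6 56.4 and MED11 55.1, and MED8 had the lowest fold of all 33 genes (43.0). Yet MED8 held 283 H3K4me3 fragments, against a median of 278 over Mediator starts. Its expected background, 5.60, was the highest of the 33 genes. The fewest H3K4me3 fragments were at MED11, 160 over an expected 1.92.

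The H3K27ac signal of MED6 was split into a pair of intervals around its start. The upstream one (chr14:70600786-70601263, 478 bp) had the higher fold, 11.0, with 48 fragments over an expected 3.47. The downstream one (chr14:70599998-70600703, 706 bp) held more fragments, 77, over an expected 7.25, and had a fold of 9.45. Both lay within a single H3K4me3 interval of 2560 bp. Ranking MED6 by fold or by fragments thus picks different intervals.

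In the middle module, the backbone gene MED14 had the highest H3K27ac fold of all 33 starts (38.3, 186 fragments, interval 3068 bp). MED26, whose product recruits elongation factors and is found in forms of Mediator without the kinase module, followed at 32.6. MED9 had 27.02, MED21 25.4, MED7 23.6 and MED4 22.5. MED19 had 18.8, MED1, the subunit bound by nuclear receptors, 17.5, MED10 17.0 and MED31 13.2. The H3K4me3 fold was highest at MED26 (102) and MED9 (80.5). MED7 (70.3), MED14 and MED21 (68.0 each) and MED4 (67.7) lay just above the all-gene median of 64.4. MED10 (62.1), MED31 (59.3), MED1 (58.9) and MED19 (47.1) lay below it. The MED26 peak stood at rank 15 of the whole H3K4me3 list, with 304 fragments over an expected 1.98.

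The tail module held the lowest H3K27ac value of the set. MED27 had a fold of 5.60 with 32 fragments (exact Poisson 95% interval 21.9 to 45.2), above only 5.37% of the genes marked at a listed start. Its H3K4me3 was not low in the same way, at a fold of 56.9 and 247 fragments, above 35.9% of genes. The next lowest tail genes for H3K27ac were MED24 (12.1), MED23 (14.4), whose product binds signal-responsive factors, and MED25 (18.1), which binds the viral activator VP16. MED15, whose KIX domain binds activators of lipid genes, had 23.7, MED28 24.3, MED30 25.2, MED16 28.7 and MED29 30.1. H3K4me3 folds in the tail lay between 53.8 at MED24 and 87.2 at MED28.

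Sequence before and around the MED27 start is shown because this promoter had the weakest H3K27ac, beside MED26, which had the highest H3K4me3 fold. Promoters are from RefSeq on GRCh38.p14 and run 5′ to 3′ on the gene's strand from 250 bases before to 30 bases after the start. Capitals mark matches, on either strand, to 7 short motifs that are spelled out further on. MED27 lies at chr9:132079838-132080117, minus strand, and MED26 at chr19:16628175-16628454, minus strand.
MED27: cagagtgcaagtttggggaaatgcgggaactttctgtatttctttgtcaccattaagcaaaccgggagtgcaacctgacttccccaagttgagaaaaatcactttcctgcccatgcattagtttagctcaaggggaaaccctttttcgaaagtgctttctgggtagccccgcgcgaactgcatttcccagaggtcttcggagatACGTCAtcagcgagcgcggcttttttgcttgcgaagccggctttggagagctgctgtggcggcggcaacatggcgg
MED26: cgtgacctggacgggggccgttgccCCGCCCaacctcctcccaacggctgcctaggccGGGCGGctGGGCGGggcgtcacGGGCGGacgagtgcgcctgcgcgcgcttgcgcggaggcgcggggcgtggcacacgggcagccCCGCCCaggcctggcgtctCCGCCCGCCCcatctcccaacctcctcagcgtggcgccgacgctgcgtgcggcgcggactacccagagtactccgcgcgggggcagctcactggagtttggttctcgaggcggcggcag
The MED27 window was 52.1% GC and held a single match, to the core of the cyclic AMP response element. The MED26 window was 76.4% GC and held 7 GC boxes.

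The kinase module, which carries the cyclin-dependent kinase activity of Mediator, had its highest H3K27ac folds at MED13L (36.6), CDK19 (33.6) and MED12 (30.03). MED13 (23.9), CDK8 (22.3), MED12L (21.8) and CCNC (21.7), the gene of cyclin C, lay close together around the all-gene median of 23.3. H3K4me3 was above its all-gene median in 6 of the 7 genes, with 90.7 at MED12L, 79.9 at MED13, 79.4 at CDK19, 79.2 at CDK8, 76.5 at CCNC and 70.0 at MED13L. MED12, at 62.9, lay just below it, although its 295 H3K4me3 fragments were the most in the module. The module medians of the H3K27ac fold were 27.5 in the head, 23.1 in the middle, 23.7 in the tail and 23.9 in the kinase module. Those of the H3K4me3 fold were 63.6, 67.8, 64.2 and 79.2 in the same order. Fragments at the start summit gave another order. Their medians, from head to kinase module as before, were 126, 122.5, 130 and 153 for H3K27ac. For H3K4me3 they were 278, 280.5, 262 and 278, over median expected backgrounds of 2.49, 3.06, 3.11 and 2.55. The kinase module thus led in H3K4me3 fold but not in H3K4me3 fragments. The ranges of the 4 modules overlapped for both marks. Sources differ on where MED14 and MED27 to MED30 belong. With MED27 to MED30 in the head, the H3K27ac fold medians were 18.1 in the tail and 25.2 in the head, which made the tail the lowest module in fold.

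The modules stood further apart in the width of the H3K27ac interval at the start. The kinase genes had intervals of 1966 to 3331 bp (median 2419), whereas the tail genes had 956 to 1692 bp (median 1352), so these groups did not overlap. The narrowest kinase interval, 1966 bp, was taken as a cut-off, so all 7 kinase genes reached it by that choice. Of the others, 2 of 7 head genes, 5 of 10 middle genes and 0 of 9 tail genes reached it. Among all genes marked at a listed start, 45.3% did. H3K4me3 intervals had medians of 3412 bp in the kinase module, 2877 bp in the head, 2435 bp in the middle and 2205 bp in the tail, with overlapping ranges. The separation of the widths depended on the placement of MED14 and on how neighbouring intervals were treated. With MED14 in the tail, 1 of 10 tail genes reached 1966 bp, and without MED27 to MED30, 0 of 5. When all H3K27ac intervals within 1 kb of the start were added up, the kinase genes had 1966 to 5320 bp (median 2853) and the tail genes 956 to 2917 bp (median 1649), and the groups overlapped.

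**Figure D2:**
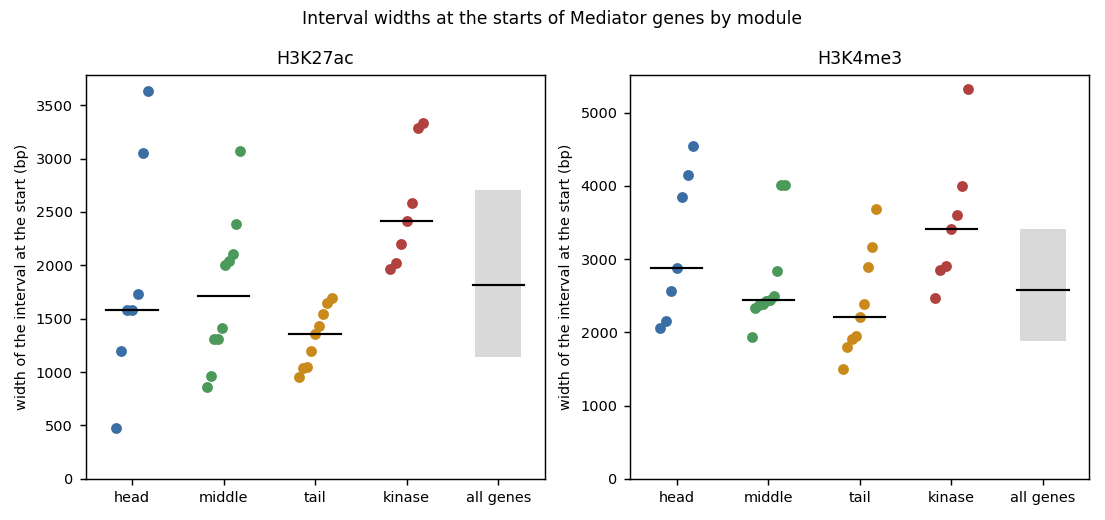
Width in bp of the strongest H3K27ac (left) and H3K4me3 (right) interval at the start, 1 point per Mediator gene by module, with a line at each module's median; the grey bar spans the middle 50% of all marked genes and its line their median. The 7 kinase genes lie above the 9 tail genes for H3K27ac, while the H3K4me3 points of these modules mix.

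The kinase module contains 3 pairs of paralogues, and in each the H3K27ac and H3K4me3 summits were set side by side as fragment counts. MED12 activates the kinase and MED13 tethers the module to the core, while CDK8 and CDK19 are alternative kinases. MED12L, MED13L and CDK19 are the vertebrate copies that take the place of MED12, MED13 and CDK8 in some complexes. The starts of 5 of these 6 genes are listed in RefSeq, and their promoters are printed to show how far the copies differ in sequence. MED12L lies at chr3:151085414-151085693, plus strand, and MED12 at chrX:71118346-71118625, plus strand. MED13L lies at chr12:116277664-116277943, minus strand. CDK19 lies at chr6:110815826-110816105, minus strand, and CDK8 at chr13:26253879-26254158, plus strand.
MED12L: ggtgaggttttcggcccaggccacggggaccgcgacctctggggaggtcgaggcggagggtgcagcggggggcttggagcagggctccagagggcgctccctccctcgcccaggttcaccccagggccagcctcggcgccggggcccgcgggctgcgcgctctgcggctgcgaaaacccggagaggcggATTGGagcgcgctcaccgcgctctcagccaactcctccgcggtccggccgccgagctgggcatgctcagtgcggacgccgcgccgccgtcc
MED12: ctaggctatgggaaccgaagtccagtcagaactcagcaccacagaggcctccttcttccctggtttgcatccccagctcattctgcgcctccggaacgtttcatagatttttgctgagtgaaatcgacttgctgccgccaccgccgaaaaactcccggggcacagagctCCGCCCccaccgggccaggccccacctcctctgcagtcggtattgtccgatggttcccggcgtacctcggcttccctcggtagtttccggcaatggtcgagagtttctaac
MED13L: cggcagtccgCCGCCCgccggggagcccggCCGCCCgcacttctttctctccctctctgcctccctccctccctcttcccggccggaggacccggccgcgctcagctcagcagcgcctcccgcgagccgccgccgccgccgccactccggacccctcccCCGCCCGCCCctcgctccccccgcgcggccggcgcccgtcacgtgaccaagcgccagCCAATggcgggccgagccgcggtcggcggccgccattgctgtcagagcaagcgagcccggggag
CDK19: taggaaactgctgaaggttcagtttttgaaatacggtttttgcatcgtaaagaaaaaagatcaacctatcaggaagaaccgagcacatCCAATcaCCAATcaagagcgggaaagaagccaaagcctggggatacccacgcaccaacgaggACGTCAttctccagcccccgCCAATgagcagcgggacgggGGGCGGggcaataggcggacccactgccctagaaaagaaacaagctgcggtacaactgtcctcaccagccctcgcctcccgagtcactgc
CDK8: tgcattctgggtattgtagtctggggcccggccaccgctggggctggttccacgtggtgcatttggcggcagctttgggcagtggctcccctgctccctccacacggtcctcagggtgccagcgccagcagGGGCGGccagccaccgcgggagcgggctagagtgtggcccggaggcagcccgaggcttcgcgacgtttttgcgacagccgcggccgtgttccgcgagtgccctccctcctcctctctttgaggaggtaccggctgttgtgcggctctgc
The GC content was 75.7% in MED12L and 58.9% in MED12, and the pair shared no motif: the MED12L window had a CCAAT box and the MED12 window a GC box. MED13L was the most GC-rich of the 25 windows (79.3%). CDK19 (53.9% GC) held 3 CCAAT boxes, a GC box and the core of a cyclic AMP response element. CDK8 (68.6% GC) held a GC box alone.

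MED12L had 98 H3K27ac fragments at its start summit and MED12 had 186, a ratio of 0.527 (exact conditional 95% interval 0.408 to 0.676). This was the only pair whose H3K27ac interval of the ratio left out 1. The folds were closer, 21.8 at MED12L and 30.03 at MED12, over expected backgrounds of 3.54 and 5.23. For H3K4me3 the same pair had 264 and 295 fragments (ratio 0.895, 0.755 to 1.06), but the expected background of 1.92 at MED12L and 3.71 at MED12 turned this into folds of 90.7 and 62.9. The order of this pair in H3K4me3 thus differed between fragments and fold. The strongest H3K27ac summit of MED12L lay 1464 bp downstream of the start, while that of MED12 lay at 176 bp.

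MED13L had 186 H3K27ac fragments and MED13 153 (ratio 1.22, 0.976 to 1.52), with folds of 36.6 and 23.9. In H3K4me3 they had 267 and 278 fragments (ratio 0.960, 0.809 to 1.14). The MED13L start had a further H3K27ac interval just upstream (chr12:116277776-116279764, fold 34.1), and its H3K4me3 interval of 5328 bp, against 4002 bp at MED13, was the widest of the 33 genes. CDK19 and CDK8 had 162 and 153 H3K27ac fragments (ratio 1.06, 0.844 to 1.33) and 288 and 280 H3K4me3 fragments (ratio 1.03, 0.870 to 1.22). Their H3K27ac folds of 33.6 at CDK19 and 22.3 at CDK8 stood further apart than the fragments, over expected backgrounds of 3.84 and 5.90. The CDK19 interval also contained the recorded end of AMD1, a gene of polyamine synthesis, so that its signal cannot be assigned to CDK19 alone. These intervals on the ratios say nothing about how much a second library would vary.

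**Figure D3:**
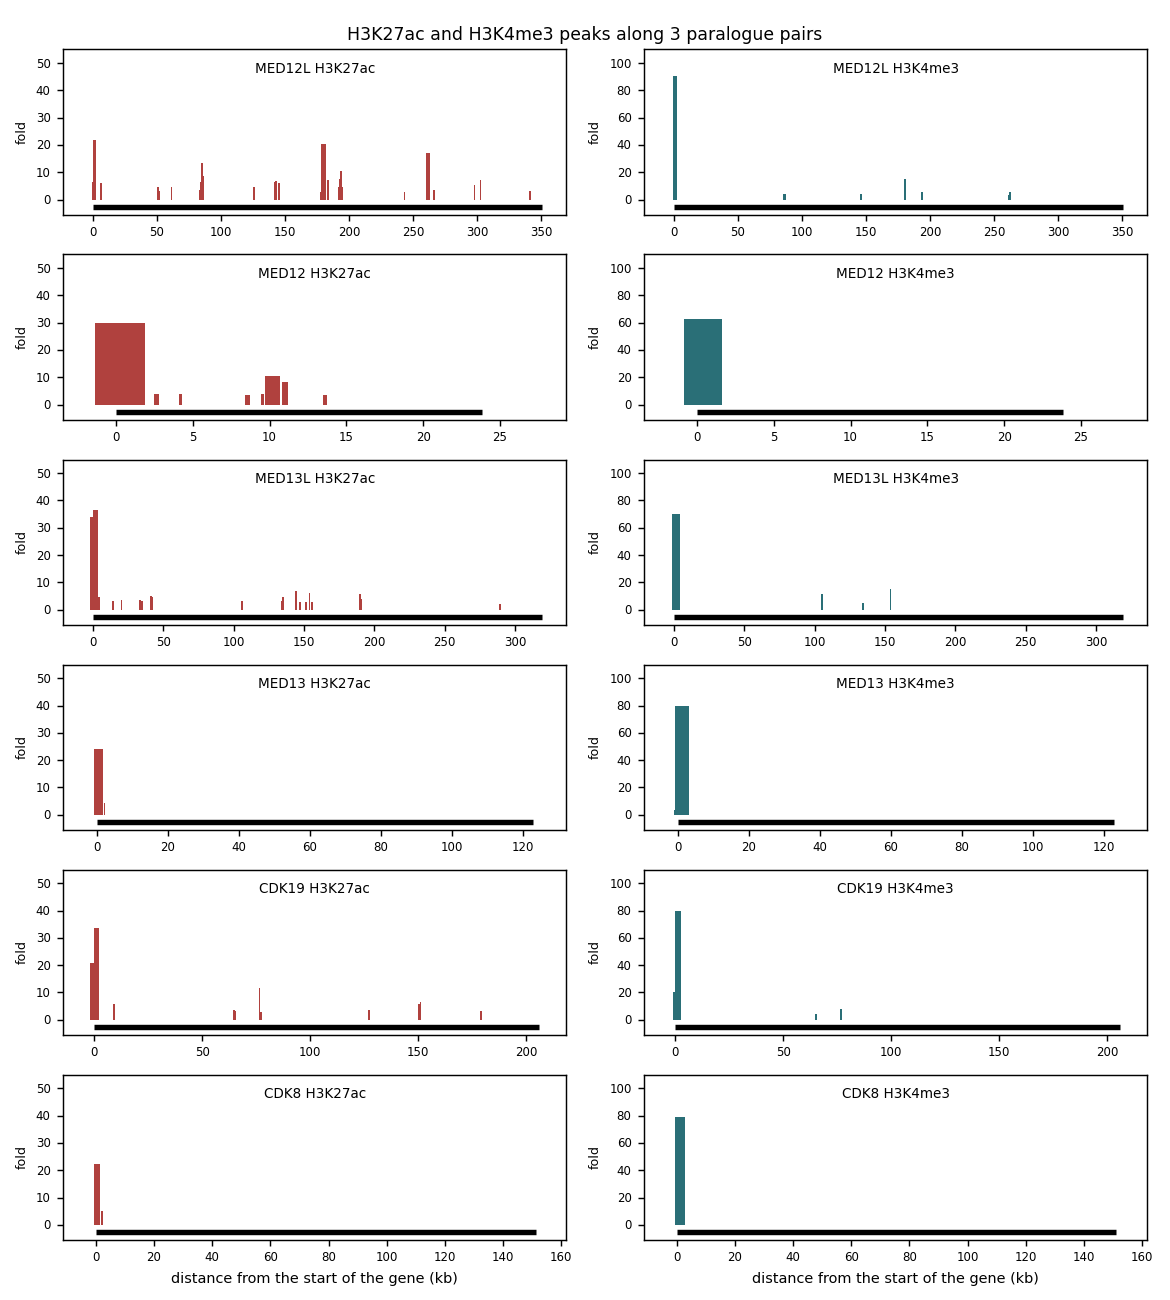
Peaks along MED12L and MED12, MED13L and MED13, and CDK19 and CDK8, with H3K27ac at left and H3K4me3 at right; bar height is the authors' fold, bar width the interval (narrow ones drawn at a minimum width), the black line the gene record, and the horizontal axis the distance from the start in kb, which differs between genes. MED12L, MED13L and CDK19 have 25, 18 and 9 H3K27ac peaks inside the gene, and MED12, MED13 and CDK8 have 7, 1 and 1.

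Inside the gene, more than 1 kb from both ends of the record, 20 of 33 members had an H3K27ac peak, where 44.1% of all genes did, and 10 of 33 had an H3K4me3 peak there, against 31.7% of all genes. For H3K27ac 1 peak each of MED20 and MED15, the strongest inside MED15 (fold 19.0), still lay within 1 kb of a listed start, and 19 members remained without these. Longer genes have more room for such peaks. Among genes of at least 100 kb, all 6 members (MED12L, MED13L, MED27, CDK19, CDK8 and MED13) had H3K27ac inside, against 65.5% of all such genes. H3K4me3 lay inside 3 of the 6, against 60.8%. The only internal H3K27ac peaks of CDK8 and MED13 came within 5 kb of an end. Those of MED13 and MED27 all had a −log10 q below 10. Shares of all long genes at these settings were not computed. Per 100 kb these 6 members had a median of 2.90 H3K27ac peaks and all long genes 1.18, and 0.473 and 0.483 H3K4me3 peaks. The 118 H3K27ac peaks inside Mediator genes were unevenly spread, with 62 in the kinase module, 31 in the tail, 22 in the middle and 3 in the head. MED12L, MED13L, MED15, MED26 and CDK19 together held 80 of them. Of the 118, 26 overlapped H3K4me3, and of the 23 H3K4me3 peaks inside members, 20 overlapped H3K27ac.

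**Figure D4:**
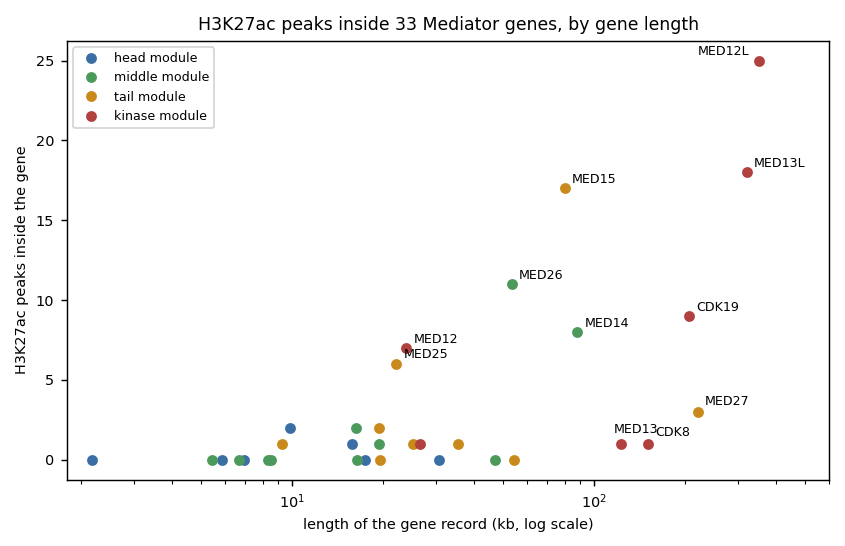
Number of H3K27ac peaks inside each of the 33 Mediator genes (vertical axis) against the length of the gene record in kb on a log scale, coloured by module. MED12L (25 peaks, 351 kb) and MED13L (18, 319 kb) lie at the upper right, while CDK8 and MED13 have 1 peak each and MED27 has 3 at lengths above 100 kb, and MED15 has 17 in 80.0 kb.

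Within each paralogue pair the copy with the longer record held more internal peaks. MED12L had 25 H3K27ac peaks in 351 kb and MED12 had 7 in 23.9 kb, so the density was lower in MED12L, 7.16 against 32.0 per 100 kb. MED13L had 18 peaks in 319 kb and MED13 had 1 in 123 kb (5.68 and 0.829 per 100 kb). CDK19 had 9 in 206 kb and CDK8 had 1 in 151 kb (4.41 and 0.671 per 100 kb). Internal H3K4me3 peaks numbered 7 in MED12L, 3 in MED13L and 2 in CDK19, and 0 in MED12, MED13 and CDK8. Most were weak, with a median H3K27ac fold of 3.54 in MED13L and 3.68 in CDK19, and fewer remained among stronger peaks. With peaks of a −log10 q of at least 10, the H3K27ac counts were 13 in MED12L and 2 in MED12, 5 in MED13L and 0 in MED13, and 4 in CDK19 and 1 in CDK8.

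The internal H3K27ac peaks of MED12L were the strongest of the 3 long copies, with a median fold of 6.14 and a highest of 20.2, close to the 21.8 at its own start. The MED12L record also contains several genes of other families, among them P2RY14, P2RY13 and P2RY12, which encode nucleotide and nucleotide-sugar receptors of blood and immune cells. The strongest internal peak (chr3:151263704-151267335, 178 to 182 kb from the MED12L start, 84 fragments) lay in P2RY14 and overlapped an H3K4me3 peak of fold 14.7. The next (chr3:151345764-151348729, fold 17.1, 73 fragments) lay in P2RY12. Another of fold 13.5 (chr3:151169658-151171260) overlapped no other gene record. In all, 12 of the 25 H3K27ac and 4 of the 7 H3K4me3 peaks inside MED12L overlapped another protein-coding record, so peaks inside MED12L cannot be assigned to that gene by position alone.

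MED26 had the most extended internal domain of the set. An H3K27ac interval of 6281 bp (chr19:16583314-16589594, fold 26.1, 113 fragments) lay 38.6 to 44.9 kb from the start, wider than 99.2% of the intervals of its list. A pair of H3K4me3 intervals of 2294 and 1779 bp lay within it, with folds of 34.1 and 16.8. At the MED26 start both marks were split. The downstream intervals had an H3K27ac fold of 30.4 and an H3K4me3 fold of 102, and the upstream ones 32.6 and 70.9. The highest fold of each mark therefore fell in a different interval, which is why the strongest intervals did not overlap. The far end of the record met H3K4me3 of fold 86.2 at SLC35E1, a neighbouring transporter gene.

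MED29 and MED14 each had a stronger peak elsewhere in the window than at the start. At MED29 the H3K27ac fold was 30.1 at the start and 49.5 in an interval at the other end (chr19:39400569-39404888, 4320 bp, 232 fragments), which ranked 132 in its list and reached beyond the end of the record. It overlapped an H3K4me3 interval that begins outside the window. A further interval of fold 32.3 (3027 bp) lay 5.93 to 8.96 kb from the start. At MED14 H3K4me3 had a fold of 68.0 at the start and 96.4 at the other end, in an interval that held the end of CXorf38.

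**Figure D5:**
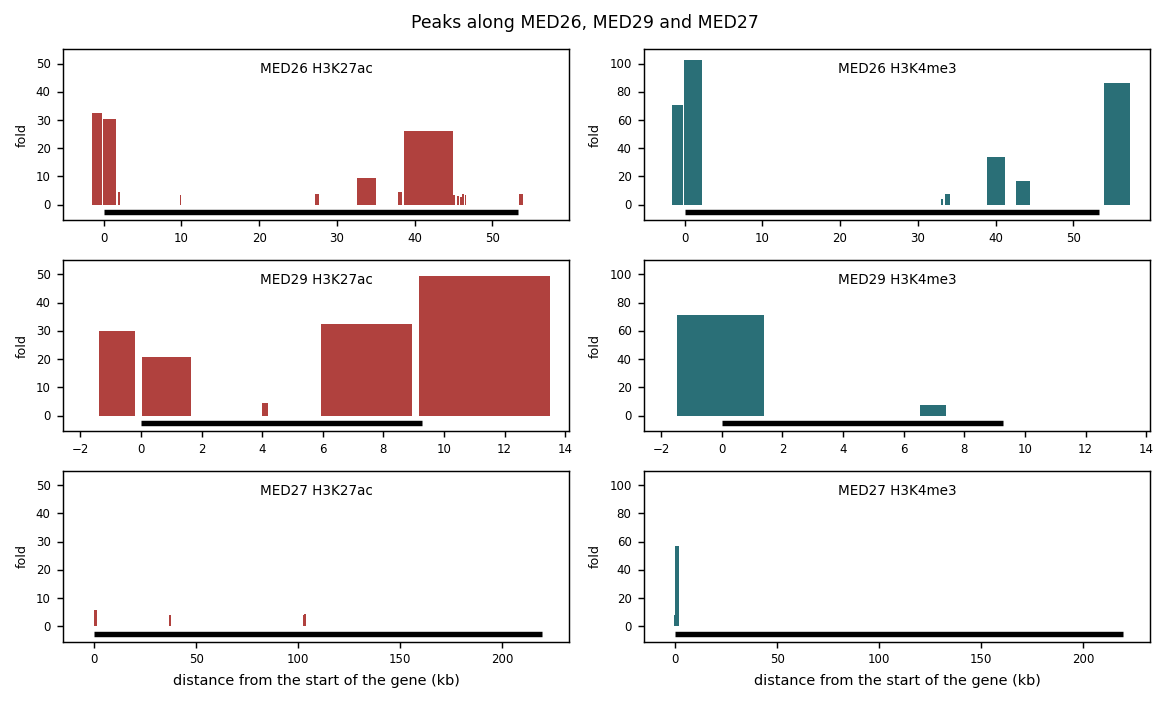
Peaks along MED26, MED29 and MED27, with H3K27ac at left and H3K4me3 at right, drawn as bars of the authors' fold over the interval by distance from the start in kb; the black line is the gene record, and peaks more than 1 kb outside it are not drawn. MED26 has a 6281 bp H3K27ac interval near 40 kb, MED29 its highest bar (49.5) at the far end, and MED27 a start bar of 5.60 for H3K27ac beside 56.9 for H3K4me3.

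Several members share their start interval with another gene. The strongest interval of at least one mark held the end of another recorded gene in 11 of 33 members, and of another protein-coding gene in 6. Among the 25 members with a listed start these counts were 6 and 4, against 45.4% and 27% of the genes with both marks at a listed start. Among the protein-coding cases were MED19 with TMX2, MED22 with the ribosomal protein gene RPL7A, and MED29 with PAF1 and SAMD4B. Others were MED31 with C17orf100 and CDK19 with AMD1. MED14, MED16, MED26, MED28 and MED30 shared theirs with non-coding records. The MED20 start lies within the record of BYSL, which overlaps MED20. The values of these 11 starts describe the shared interval rather than 1 gene.

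Among the 25 members with a listed start, the H3K27ac summit lay a median of 188 bp downstream and the H3K4me3 summit 264 bp downstream, against 184 and 262 bp over all genes. The H3K27ac summit was downstream in 20 of 25 members and 72.3% of genes, and the H3K4me3 summit in 22 of 25 members and 83.3% of genes. The summits thus lay about as far from the start in Mediator genes as in other marked genes.

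The promoter windows of these 25 members were then searched on both strands for 7 short words. The CCAAT box (CCAAT, bound by NF-Y) was present in 10 windows (40.0%, against 35.7% of 15812 genes). The GC box (GGGCGG, bound by SP factors) was in 15 (60.0%, against 57.3%), and the TATA box (TATAAA) in 2, MED7 and MED16 (8.0%, against 9.58%). Both TATAAA matches lay nearer the upstream end of the window than the start, that of MED7 at the very first base. The word CCGGAAGT, bound by ETS factors, was in 6 windows (MED7, MED11, MED15, MED17, MED18 and MED29), 24.0% against 6.07% of genes. TGACGT, the core of the cyclic AMP response element, was also in 6 (CDK19, MED9, MED18, MED27, MED29 and MED31), 24.0% against 9.5%. AAGATGGCG, bound by YY1, was in 3 (MED1, MED18 and MED25), 12.0% against 2.09%, and the NRF1 motif in MED18 alone, 4.0% against 1.74%. Matches overlapped only with others of the same word, for the GC box in MED13L, MED26 and MED31 and for TGACGT in MED18. Median GC content was 57.9% in Mediator windows and 62.5% in all windows.

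MED18 is shown because its window held 4 of the 7 words, a number that MED29 shared, and was the only one with the NRF1 motif. It lies at chr1:28328790-28329069, plus strand.
MED18: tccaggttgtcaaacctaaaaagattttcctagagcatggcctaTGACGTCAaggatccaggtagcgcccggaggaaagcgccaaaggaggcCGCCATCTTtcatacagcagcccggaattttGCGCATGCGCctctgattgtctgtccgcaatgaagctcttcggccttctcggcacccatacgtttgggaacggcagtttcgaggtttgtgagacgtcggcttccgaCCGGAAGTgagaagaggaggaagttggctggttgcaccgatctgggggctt
Its start had an H3K27ac fold of 19.9 and an H3K4me3 fold of 63.6, both below the all-gene medians. The 6 members with the ETS word had H3K27ac folds between 19.9 and 34.7, within the range of the others. A match is a description of the letters and was not tested as a binding site.

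Mediator genes lay at a median distance from a super-enhancer similar to that of all genes. None of the 33 was the assigned target of a super-enhancer, a count not far from the 2.25% of all genes, and 1 had a super-enhancer within 100 kb, against 9.5% of all genes. This was MED20, at 86.04 kb from a region of 38.6 kb (chr6:42007180-42045744, rank 514 in the table) that overlaps CCND3, the cyclin D3 gene, and is assigned to TAF8, a TFIID subunit. The total H3K27ac signal of this region was 7.10 times its input signal. Within 500 kb there were 9 of 33 members, close to the 27.7% of all genes, among them MED16, at 177 kb from the region assigned to POLR2E, and MED24, at 249 kb from that of the retinoic acid receptor gene RARA. The median distance to the nearest super-enhancer was 1483 kb for Mediator genes and 1351 kb for all genes. The assignments are the authors' and were made on expression within a chromatin domain, per the name of the table.

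The partners of Mediator at promoters were marked as regularly. Both marks lay at an end of 12 of 12 RNA polymerase II subunit genes, 17 of 18 genes of the general factors (GTF2H2 being without), 13 of 13 TFIID genes and 7 of 7 genes of enhancer cofactors, where 60.4% of all genes had them. The median of the highest H3K27ac fold was 23.7 over Mediator genes, 24.6 over polymerase subunits, 22.1 over general factors, 26.7 over TFIID and 32.5 over the cofactors, against 22.9 over all marked genes. For H3K4me3 the medians were 67.5, 69.3, 68.8, 71.0 and 58.7 in the same order, against 62.3. Within each of the 4 partner lists H3K27ac was highest at POLR2L (46.5), EP300, the acetyltransferase that writes H3K27ac (45.2), GTF2H1 (44.3) and TAF12 (38.9). The lowest of 3 of these lists were POLR2J (4.74), TAF3 (11.5) and CDK7, the kinase of TFIIH (12.7). By list again, H3K4me3 was highest at TAF10 (97.0), TBP (87.6) and POLR2G (87.2), and lowest at POLR2J (16.8), TAF2 (46.3), GTF2H5 (47.4) and SMC1A (54.8). POLR2J has near-identical copies, between which reads may be divided, which was not tested. Whether reads could be placed uniquely at GTF2H2, which had no peak of either mark, was not tested either. POLR2E and TAF8 were super-enhancer targets.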

How the data were processed

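The genome build was hg38 and the tools named are Bowtie2 2.3.4 and bedtools 2.20.1, per the submitters' processing notes. Neither the peak caller nor the total of reads is given in the sources used here. Per the file headers and layout, the authors' peak lists hold a score, a fold ratio at the summit, a −log10 p and a −log10 q. The lowest deposited −log10 q was 1.32 for H3K27ac and 1.33 for H3K4me3. The authors' super-enhancer table holds total H3K27ac and input signal per region, of unstated scaling. Score equals 10 times the −log10 q, rounded down.

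With Python 3.11.15, pandas 2.3.3, numpy 2.4.6, scipy 1.17.1 and matplotlib 3.10.9, peaks within 1 kb of each RefSeq record (GRCh38.p14) were taken, with an overlap of at least 1 bp, and the strongest by fold at the start was described. The fold, as (fragments + 1)/(expected + 1), and the upper Poisson tail returned whole-number fragments in 100% of rows within 0.01 on the −log10 scale. The method was tested on simulated data. With 1 library per mark no test was possible. Named genes were all members, genes whose ends share a member's interval, targets of super-enhancers within 100 kb, and the partner genes highest and lowest in each mark, some of which are not reported here; genes inside MED12L, at the far ends of MED14 and MED26, and super-enhancer targets within 500 kb were added after their values were seen. Members, modules and lists were chosen with earlier results of these data known. The start rule for 8 members and the summed widths were set after seeing the data.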

Additional observations from a re-analysis of the deposited data

How the results depend on the processing

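Of 104 values recomputed under other settings for 47 results, 86 moved by at most 1.5 times (2 of them by exactly that, both the excess of internal H3K4me3 peaks in MED13L over MED13) and 18 by more, and no sign was reversed. The counts of 33 members with both marks, and the medians of fold and width over all members and by module, were among the 86. For many of the 86 the setting could hardly move the value, so they say little about robustness. The stricter lists drop weak peaks and keep a highest fold held by a strong peak. A wider window cannot lower a count. The fold medians over all members were identical in every setting, as were the paralogue differences in fold and width at the start. The 1 member with a super-enhancer within 100 kb became 0 at 50 kb, 0 by overlap and 9 at 500 kb, where the shares of all genes were 6.45%, 2.92% and 27.7%. The 20 members with H3K27ac inside the gene became 12 with the 50% of peaks of highest fold, 10 with a −log10 q of at least 10 and 11 with a margin of 5 kb, where the shares of all genes were 31%, 26.6% and 29.7%. The 10 with H3K4me3 inside became 3, 5 and 6 of 33, beside 15.1%, 22.1% and 21.3% of all genes. The excess of internal H3K27ac peaks in MED12L over MED12 was 18 with all peaks and 11 with a −log10 q of at least 10. That of MED13L over MED13 was 17 with all peaks, 6 with the 50% of highest fold and 5 with a −log10 q of at least 10, and that of CDK19 over CDK8 was 8, 3 and 3. The excess of internal H3K4me3 peaks was 7, 1 and 2 for MED12L, and 2, 0 and 1 for CDK19. These settings leave fewer peaks to count. No paired analysis was possible because each mark has 1 library.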
